A study of Mus musculus with 18 samples.

Results

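Motor neurons of the spinal cord were compared within SOD1 mutant mice with those of the facial nucleus, the brainstem nucleus that drives the muscles of the face. The comparison rests on 6 of the series' 18 arrays, chosen by their labels: 3 of SOD1 mutant spinal motor neurons and 3 of SOD1 mutant facial motor neurons. For the same site contrast without the mutation, 3 arrays of wildtype spinal and 3 of wildtype facial motor neurons were used, and the other 6 arrays hold ventral spinal cord tissue of both genotypes. All samples are mouse RNA that went through a T7-based linear amplification. The labels give no SOD1 allele, no strain, sex or batch, no way of picking the cells and no link of samples to animals, and every title carries the code D60, which they do not explain. The p-values therefore measure only how these samples vary, and some of that variation may be technical.

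A motor neuron carries 2 layers of identity. One is shared by all cholinergic motor neurons, and the other records its place along the body axis. Spinal motor neurons get their position from Hox genes, the chromosomal clusters of homeobox genes whose later paralog groups are used further towards the tail, and they depend on the homeodomain factor Mnx1. Facial motor neurons arise in the hindbrain as branchiomotor cells, which use T-box factors. In SOD1 mutant mice, which model amyotrophic lateral sclerosis (ALS), spinal motor neurons and the microglia and astrocytes around them are the cells most studied, and cranial motor nuclei are known to differ in how strongly they are affected.

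Values below are log2(intensity + 16) after quantile normalization, differences are spinal minus facial on that scale with the limma standard error (SE), and n = 3 arrays a site throughout. Of 10916 genes tested in the mutant, 797 (7.3%) passed an adjusted p of 0.05 (limma, Benjamini-Hochberg). Of these, 446 (4.09% of all tested) were higher in spinal and 351 (3.22%) lower. The split depends on the scaling: with the deposited values brought to a common median, which moved the median difference of all genes by -0.09, 305 were higher and 459 lower. Leaving out 1 array lowered the count of 797 to 308, 353 and 365 without spinal replicate 1, 2 and 3, and to 541, 683 and 522 without facial replicate 1, 2 and 3. The differences exceeded 1 on the log2 scale for 208 higher and 143 lower genes, and exceeded 2 for 51 and 25. Levels under 8.79, the 40th percentile of genes over all 18 arrays, are treated as near background, and no fold is given against them.

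RNA quality and replicate agreement overlapped between the 2 sites. The ratio of 3' to 5' signal of the actin control probe sets, which grows as amplified RNA falls short of the 5' end, was 39.1, 27.8 and 25.3 in spinal arrays and 33.8, 59 and 26.6 in facial arrays, and these ranges overlap (exact permutation test, two-sided, p = 0.6, where 0.1 is the smallest possible). Within a site the mutant arrays correlated across genes at r = 0.94 to 0.946 in spinal and 0.937 to 0.947 in facial samples. The labels do not say whether the mutation lies in the mouse superoxide dismutase gene, Sod1. Sod1 had 16.84, 16.87 and 16.85 in spinal arrays and 16.86, 16.71 and 16.69 in facial arrays. Its difference of 0.10 (SE 0.08, adjusted p = 0.461) was not past the threshold, and it became -0.13 when the deposited values were brought to a common median.

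Hox genes were among the genes with the widest site differences. The array holds 23 genes of paralog groups 5 to 13, and 8 passed the brightness filter, all through their spinal arrays, so their count says little by itself. Those 8 were Hoxb6, Hoxc8, Hoxd8, Hoxa9, Hoxc9, Hoxd9, Hoxc10 and Hoxd10, all past the threshold and higher in spinal, with differences of 4.14 to 8.87. Hoxa9 read 15.04, 14.85 and 14.58 in spinal arrays and 5.02, 8.13 and 4.70 in facial arrays. That is a difference of 8.87 (SE 0.67, adjusted p = 1.77e-05), with every facial array near background. A second, dimmer Hoxa9 probe set differed by 1.31, with means of 10 in spinal and 8.69 in facial arrays.

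Hoxc10, whose product marks lumbar levels of the cord, read 14.01, 13.90 and 13.95 in spinal arrays and 7.89, 7.87 and 6.95 in facial arrays. The arrays of the 2 sites lay far apart, with a difference of 6.39 (SE 0.29, adjusted p = 1.28e-07). Hoxc8 had 13.65, 13.89 and 13.69 in spinal and 7.35, 8.47 and 7.39 in facial arrays, a difference of 6.01 (SE 0.31, adjusted p = 4.58e-07). Hoxd9 had 13.26, 13.31 and 13.37 in spinal and 7.17, 7.26 and 5.89 in facial arrays, a difference of 6.54 (SE 0.38, adjusted p = 1.23e-06). In these 3 genes no facial array reached the background level of 8.79.

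Among the anterior paralog groups, 2 tested genes passed and 2 did not. The 2 that passed, Hoxc4 and Hoxb4, had facial means near background and were tested because of their spinal arrays. This split therefore says little by itself. Without any one spinal array neither of them was tested, and no gene of these groups passed. Hoxc4 had 11.85, 12.19 and 11.53 in spinal and 6.07, 6.68 and 4.90 in facial arrays (difference 5.98, adjusted p = 7.6e-05). Hoxb4 had 10.06, 9.94 and 10.16 in spinal and 6.53, 8.58 and 7.66 in facial arrays, a smaller gap of 2.47 (SE 0.56, adjusted p = 0.0218). Hoxb2 and Hoxb3, which are also used in the hindbrain, overlapped between the sites, with differences of 0.07 (SE 0.44, adjusted p = 0.947) and 0.21 (SE 0.50, adjusted p = 0.842). The 6 other Hox genes of groups 1 to 4 on the array were too dim to be tested, with site means of 5.51 to 9.06.

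Of the 15 genes of groups 5 to 13 that the filter left out, 9 were near background at both sites and 7 had every spinal array above every facial one, which 14% of all tested genes had (28.4% had sites that did not overlap in either direction). Without the filter, where 3.68% of all genes passed, 4 of them were past the threshold with differences over 4: Hoxb5 (12.18 in spinal and 4.81 in facial, adjusted p = 1.35e-05), Hoxc5 (11.59 and 4.96, adjusted p = 0.000115), Hoxa7 (10.81 and 6.47, adjusted p = 0.00328) and Hoxa5 (10.85 and 6.41, adjusted p = 0.00915). Hoxa10 was lower in level, at 9.73 in spinal and 6.91 in facial arrays (adjusted p = 0.0338 without the filter). Group 13 genes were near background at both sites, as were Hoxb7, Hoxb9, Hoxd11 and Hoxd12.

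Single motor neuron transcription factors were as far apart, although 9 of 12 tested spinal factors did not pass. Mnx1, the homeodomain factor that holds spinal motor neurons in their fate, read 12.30, 12.14 and 12.93 in spinal arrays and 6.37, 5.86 and 4.90 in facial arrays. Its difference was 6.75 (SE 0.49, adjusted p = 1.22e-05), and all facial arrays were near background. Shox2, a homeobox gene of hindbrain motor nuclei and spinal interneurons, ran the other way. It had 6.59, 8.37 and 4.94 in spinal arrays and 14.62, 14.34 and 14.47 in facial arrays, a difference of -7.84 (SE 0.61, adjusted p = 1.92e-05) with every spinal array near background.

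The promoters of these oppositely placed regulators are shown so that their sequence can be set beside their levels. They are RefSeq promoters on GRCm38.p6, from 250 bases before to 50 after the start of the gene, written 5′ to 3′ on the gene's strand, and capitals mark TAAT or ATTA, the core letters that homeodomains are known to bind, searched in this window on both strands. Hoxa9 lies at chr6:52227321-52227620 (minus strand), Hoxd9 at chr2:74697513-74697812 (plus strand), Mnx1 at chr5:29478421-29478720 (minus strand) and Shox2 at chr3:66981722-66982021 (minus strand).
Hoxa9: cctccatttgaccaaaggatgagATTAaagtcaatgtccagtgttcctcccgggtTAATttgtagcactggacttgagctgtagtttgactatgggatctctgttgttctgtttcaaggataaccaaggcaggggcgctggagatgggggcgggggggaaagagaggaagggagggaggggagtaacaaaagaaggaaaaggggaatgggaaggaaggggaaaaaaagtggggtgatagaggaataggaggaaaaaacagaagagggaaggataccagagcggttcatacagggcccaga
Hoxd9: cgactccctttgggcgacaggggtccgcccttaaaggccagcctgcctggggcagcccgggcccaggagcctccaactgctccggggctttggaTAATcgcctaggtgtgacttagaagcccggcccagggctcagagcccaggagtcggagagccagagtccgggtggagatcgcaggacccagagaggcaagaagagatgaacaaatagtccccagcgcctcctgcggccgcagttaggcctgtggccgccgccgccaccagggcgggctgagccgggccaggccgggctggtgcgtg
Mnx1: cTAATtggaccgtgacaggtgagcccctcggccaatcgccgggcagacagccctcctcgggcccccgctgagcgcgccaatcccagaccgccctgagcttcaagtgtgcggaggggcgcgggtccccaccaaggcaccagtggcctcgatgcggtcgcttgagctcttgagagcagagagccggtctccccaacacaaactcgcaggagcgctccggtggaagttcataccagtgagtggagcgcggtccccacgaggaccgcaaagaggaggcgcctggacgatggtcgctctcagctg
Shox2: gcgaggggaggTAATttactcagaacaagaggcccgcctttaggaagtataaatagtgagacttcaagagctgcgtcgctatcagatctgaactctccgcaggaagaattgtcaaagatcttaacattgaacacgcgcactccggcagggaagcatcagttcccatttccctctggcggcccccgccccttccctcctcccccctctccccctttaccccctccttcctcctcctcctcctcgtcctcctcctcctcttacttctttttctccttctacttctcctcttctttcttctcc
The Hoxa9 window holds 2 matches and the other 3 windows 1 each, and 58% of all 32851 RefSeq promoters of this length hold at least 1. The windows differ in CG dinucleotides, with 4 in Hoxa9, 20 in Hoxd9, 26 in Mnx1 and 11 in Shox2, against a median of 7 over all promoters. A match is a string of letters and not a measured binding site, and neither count was tied to the levels.

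Of the LIM factors of motor neurons, Isl1 and Isl2 passed in opposite directions. Isl1 had 13.58, 12.74 and 13.18 in spinal arrays and 14.97, 15.33 and 15.12 in facial arrays, so the mutant spinal level was 3.92-fold lower (difference -1.97, SE 0.20, adjusted p = 0.000207). Isl2 had 11.42, 10.68 and 11.64 in spinal and 10.06, 9.03 and 9.84 in facial arrays, 3.04-fold higher in spinal (difference 1.60, SE 0.35, adjusted p = 0.0183). The Isl2 call was lost without spinal replicate 1 (adjusted p = 0.0818) or 3 (0.0789). Mnx1, tested because of its spinal arrays, fell below the filter without any one spinal replicate. Without spinal replicate 1 or 3 no member of the list was then called higher, and without spinal replicate 2 only Isl2 was. The other 9 tested members of the spinal factor list lay between -1.10 and 0.42 and did not pass. Lhx4, another LIM factor, overlapped at 10.76 in spinal and 10.92 in facial arrays (adjusted p = 0.812). Lhx3, which works with Isl1 in medial motor neurons, was too dim for the test, at 9.84 in spinal and 7.64 in facial arrays.

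Factors of cranial motor neurons were often dim, with 13 spinal means and 7 facial means near background. Of 20 on the array 8 were tested, and Rgs4, a regulator of G-protein signalling and not itself a transcription factor, was the only one past the threshold, at 14.86 in spinal and 15.45 in facial arrays (difference -0.59, adjusted p = 0.0223, lost without facial replicate 3 or any one spinal replicate). Tbx20, the T-box factor of branchiomotor neurons, was left out by the filter but read 6.03, 5.18 and 6.44 in spinal arrays and 11.58, 10.46 and 12.26 in facial arrays. Without the filter its difference was -5.55 (adjusted p = 0.000501). Tbx2 (6.38 in spinal and 10.02 in facial) and Tbx3 (7.12 and 9.91) also had every facial array above every spinal one, with adjusted p = 0.0298 and 0.0734 without the filter. Phox2a was near background at both sites.

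Of 10 tested Hox cofactors and other regionalization factors, 8 did not pass, 1 was higher and 1 lower, where 4.09% of all genes were higher and 3.22% lower. Meis2, a cofactor of Hox proteins, was 2.81-fold lower in spinal, with 11.91, 12.29 and 11.54 against 13.45, 13.25 and 13.50 in facial arrays (difference -1.49, adjusted p = 0.00192). Irx3, an Iroquois homeobox gene, was 3.37-fold higher in spinal, at 13.91 ± 0.47 against 12.16 ± 0.87 in facial arrays (SD, difference 1.75, adjusted p = 0.0149, lost at 0.0602 without spinal replicate 3). Outside that list, Zfhx4, a large zinc finger homeobox gene, was lower in spinal by -3.83 (SE 0.54, adjusted p = 0.00192), from means of 8.41 in spinal and 12.24 in facial arrays. Mab21l1 was lower by -3.28 (adjusted p = 0.035), but its spinal arrays spread over 7.63, 9.77 and 5.33 and the call was lost without either of 2 spinal and 2 facial arrays, at adjusted p up to 0.0936.

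**Figure D1:**
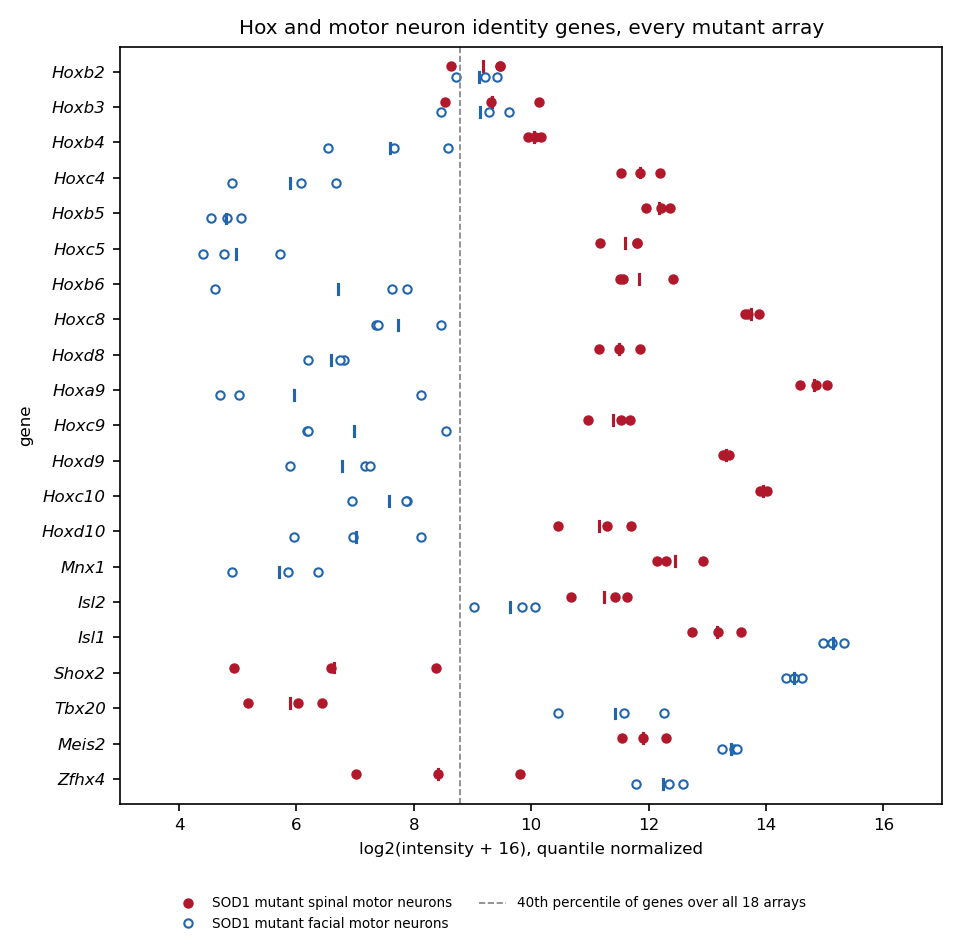
Levels of Hox and motor neuron identity genes on each of the 6 mutant arrays, as log2(intensity + 16). Filled red points are spinal and open blue points facial arrays, short bars are the means of 3, and the dashed line is the background level of 8.79. Hox genes from Hoxc4 on and Mnx1 sit to the right in spinal arrays, whereas Shox2, Tbx20, Isl1, Meis2 and Zfhx4 sit to the right in facial arrays.

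Genes of the motor neuron transmitter, acetylcholine, mostly did not pass. Of 9 tested cholinergic genes 7 did not pass, between -0.53 and 0.92. Chat, the acetylcholine-synthesizing enzyme, had 9.94, 9.07 and 9.70 in spinal and 10.24, 8.86 and 10.26 in facial arrays (difference -0.22, SE 0.44, adjusted p = 0.808). Slc18a3, the vesicular acetylcholine transporter, had 13.20, 12.86 and 13.40 in spinal and 13.16, 12.52 and 13.56 in facial arrays (difference 0.07, SE 0.25, adjusted p = 0.893). Both sets of arrays overlapped, and a miss of the threshold does not show that the sites were equal.

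The 2 cholinergic genes that passed encode nicotinic receptor subunits. Chrna7, the subunit of the homomeric alpha-bungarotoxin receptor, was 2.95-fold higher in spinal, at 12.70, 12.61 and 12.31 against 11.04, 11.16 and 10.73 in facial arrays (difference 1.56, SE 0.21, adjusted p = 0.00166). Chrnb2 was 2.33-fold higher, at 11.39 ± 0.14 in spinal and 10.17 ± 0.16 in facial arrays (SD, adjusted p = 0.0116, lost at 0.0529 without spinal replicate 3). Another tested subunit, Chrna4, overlapped between the sites and did not pass (0.92, adjusted p = 0.311). Of 19 tested genes that mark motor neuron subtypes, 5 were higher and 3 lower (26.3% and 15.8%, against 4.09% and 3.22% of all genes), but only 2 were higher without spinal replicate 1 and only 1 lower without any one array other than spinal replicate 2. In facial arrays 2 of the 19 had means near background, 1 of them called, and of the other 17, 7 passed. Mmp9, a metalloprotease of fast motor neurons that are lost early in SOD1 mice, was 2.58-fold higher in spinal, at 13.42, 13.04 and 13.59 against 11.87, 11.61 and 12.47 (difference 1.37, SE 0.24, adjusted p = 0.00635).

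The fast motor neuron gene Chodl was 1.45-fold higher in spinal, at 15.97 ± 0.13 against 15.43 ± 0.08 in facial arrays (SD, adjusted p = 0.0121). That small gap was lost without spinal replicate 1 or 3 and at a common median (adjusted p = 0.199). Prkcd, a protein kinase C, was 4.74-fold higher in spinal (11.52 ± 0.20 against 9.28 ± 0.87, SD, adjusted p = 0.00588). Creb5 was 3.31-fold lower, at 9.54 ± 0.31 in spinal and 11.26 ± 0.48 in facial arrays (SD, adjusted p = 0.00804).

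Few receptor genes passed, and those that did lay in both directions. Among 16 glutamate receptor genes 1 was higher and 1 lower, shares of 6.25% each, near those of all genes (4.09% and 3.22%). Grin2b, an NMDA receptor subunit, was 3.25-fold higher in spinal, at 11.25, 11.36 and 11.08 against 9.70, 9.38 and 9.49 in facial arrays (difference 1.70, SE 0.26, adjusted p = 0.00331). Gria1, an AMPA receptor subunit, was 2.73-fold lower, at 11.30, 10.66 and 11.07 in spinal and 12.61, 11.95 and 12.81 in facial arrays (difference -1.45, SE 0.26, adjusted p = 0.00766). Of 12 GABA and glycine receptor genes, Gabra5 was 2.36-fold higher in spinal (12.46 ± 0.01 against 11.22 ± 0.15, SD, adjusted p = 0.00331) and Gabrb2 2.91-fold lower (11.85 ± 0.53 against 13.39 ± 0.34, adjusted p = 0.0058). Other Gabrb2 probe sets above background differed by -1.93, -0.4 and -0.75. Glra1, the adult glycine receptor subunit, was 2.1-fold higher (14.76 ± 0.17 against 13.69 ± 0.49, adjusted p = 0.0122), and this was lost without spinal replicate 2 (adjusted p = 0.051) and in a fit of all 12 motor neuron arrays (0.16).

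Htr3a, the ion channel receptor of serotonin, was 6.05-fold lower in spinal. It read 11.61, 9.37 and 10.43 in spinal arrays and 13.01, 13.17 and 13.01 in facial arrays (difference -2.60, SE 0.41, adjusted p = 0.00374). Htr7, a G-protein coupled serotonin receptor, was 2-fold higher in spinal (12.22 ± 0.27 against 11.22 ± 0.34, SD, adjusted p = 0.026), a call that was lost without any one of 5 arrays (adjusted p up to 0.107). Trhr, the receptor of thyrotropin-releasing hormone, was 1.9-fold higher (13.70 ± 0.09 against 12.77 ± 0.33, adjusted p = 0.014, lost at 0.0648 without spinal replicate 1).

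Of 30 tested potassium channel genes 6 were higher and 4 lower, which is 20% and 13.3%, where 4.09% and 3.22% of all genes were. Of the 30, 1 had a facial mean near background and was called, and 9 of the other 29 passed. Kcna2, an axonal delayed rectifier, was 1.68-fold higher in spinal, at 15.57, 15.49 and 15.54 against 14.77, 14.73 and 14.85 in facial arrays (difference 0.75, SE 0.11, adjusted p = 0.00213). The facial arrays were higher for Kcnq3, a subunit of the M-current channel, by 2.68-fold (spinal 12.33, 12.18 and 11.70, facial 13.47, 13.30 and 13.71, difference -1.42, adjusted p = 0.00229). They were also higher for Kcnd3, an A-type channel (spinal 11.91 ± 0.14, facial 13.24 ± 0.32, SD, difference -1.33, adjusted p = 0.00305), and for Kcnmb4, a subunit of the calcium-activated BK channel (spinal 13.81 ± 0.03, facial 14.77 ± 0.23, difference -0.96, adjusted p = 0.00308).

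Of 26 sodium, calcium and HCN channel genes 2 were higher and 1 lower, shares of 7.69% and 3.85% that lie near those of all genes (4.09% and 3.22%), with none higher without spinal replicate 1 or 3 and 1 higher without spinal replicate 2 or facial replicate 2 or 3. Cacna2d1, an auxiliary calcium channel subunit, was 3.77-fold lower in spinal, at 10.08, 10.26 and 9.22 against 11.18, 12.22 and 11.90 in facial arrays (difference -1.92, SE 0.34, adjusted p = 0.00656). Scn4b, a sodium channel beta subunit, was 1.76-fold higher (15.55 ± 0.15 against 14.73 ± 0.41, SD, adjusted p = 0.0183), and the call was lost without spinal replicate 1 (adjusted p = 0.0761) or 3 (0.0665). Calb2, the calcium buffer calretinin, had the smallest p of all tested genes. It read 15.86, 15.88 and 15.93 in spinal arrays and 10.30, 9.44 and 9.11 in facial arrays, 77.2-fold higher in spinal (difference 6.27, SE 0.26, adjusted p = 8.62e-08).

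Most genes of axon guidance did not pass. Of 35, 3 were higher and 3 lower (8.57% each, against 4.09% and 3.22% of all genes), with 5 lower without facial replicate 1. Sema3c, a secreted semaphorin, was 4.79-fold lower in spinal, at 11.76, 12.24 and 11.51 against 13.70, 14.50 and 14.09 in facial arrays (difference -2.26, SE 0.24, adjusted p = 0.000251). Plxnc1, a semaphorin receptor, was 3.51-fold lower (9.19 ± 0.25 in spinal, 11.01 ± 0.09 in facial, SD, adjusted p = 0.00399). Nrp2, a neuropilin, was 3.04-fold higher (13.80 ± 0.23 in spinal, 12.19 ± 0.68 in facial, adjusted p = 0.00656).

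Epha4, an ephrin receptor that modifies disease in SOD1 animal models, was 3.05-fold lower in spinal, at 10.35, 10.28 and 10.12 against 11.45, 12 and 12.12 in facial arrays (difference -1.61, SE 0.25, adjusted p = 0.00307). Its 4 other probe sets were lower in spinal as well, by -0.93 to -2.29. Of 20 cadherins and protocadherins 5 were higher and 3 lower (25% and 15%, against 4.09% and 3.22% of all genes), with 1 higher without spinal replicate 1 or 2, 2 without spinal replicate 3, 3 without facial replicate 1 or 3, and 1 lower without facial replicate 3. Cdhr1 was 2.87-fold higher (12.62 ± 0.10 in spinal, 11.10 ± 0.16 in facial, SD, adjusted p = 0.00127) and Cdh6 1.87-fold higher (13.33 ± 0.07 and 12.42 ± 0.33, adjusted p = 0.018, lost without any one of 4 arrays). Pcdh19 was 2.37-fold lower (11.48 ± 0.36 and 12.73 ± 0.32, adjusted p = 0.0104), and Pcdh10 3.14-fold lower (10.07 ± 0.76 and 11.72 ± 0.38, adjusted p = 0.0181, lost at 0.0665 without facial replicate 3). The probe sets of Pcdh10 disagree, since 2 dimmer ones differed by 0.29 and 0.34 and another by -0.83.

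Cbln1, a secreted organizer of synapses, was 11.7-fold higher in spinal, at 13.14, 13.54 and 12.97 against 11.11, 8.18 and 9.69 in facial arrays (difference 3.55, SE 0.53, adjusted p = 0.00275). Nectin3, an adhesion molecule of synaptic and other junctions, was lower by -2.77 (SE 0.63, adjusted p = 0.0215), with spinal arrays of 9.53, 9.92 and 6.91 and facial arrays of 11.74, 10.97 and 11.95. The Nectin3 call was lost without facial replicate 1 (adjusted p = 0.0614) or 3 (0.0708).

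**Figure D2:**
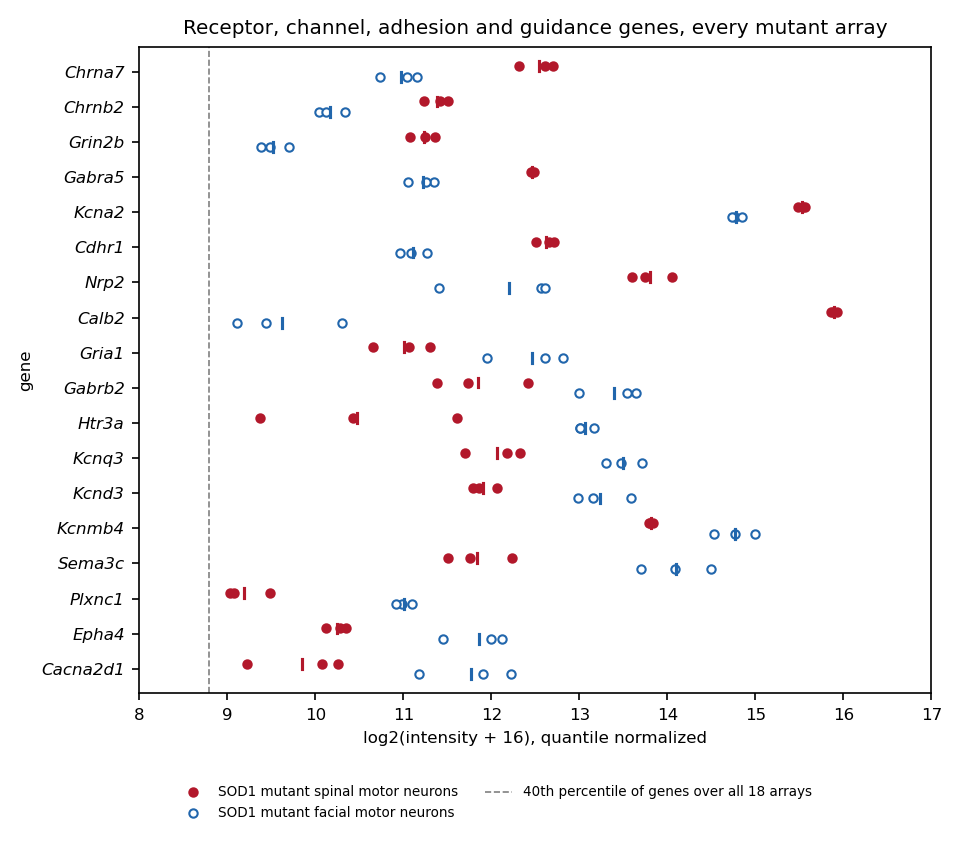
Levels of receptor, channel, adhesion and guidance genes on each of the 6 mutant arrays, as log2(intensity + 16). Filled red points are spinal and open blue points facial arrays, short bars are means of 3, and the dashed line is the background level of 8.79. In the upper 8 genes, down to Calb2, every spinal array lies above every facial one, and in the lower 10 every facial array lies above every spinal one.

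Several of the genes that were lowest in spinal motor neurons belong to no list. Bex1, a brain-expressed adaptor of neurotrophin signalling, had 4.94, 11.16 and 10.28 in spinal arrays and 14.30, 14.54 and 14.56 in facial arrays. Spinal replicate 1 stands far below the other 2, yet all 3 were below every facial array (difference -5.68, SE 1.12, adjusted p = 0.0121). Nt5dc2 had 7.94, 5.01 and 7.69 in spinal and 11.10, 11.54 and 10.85 in facial arrays (difference -4.28, SE 0.68, adjusted p = 0.00375). Cidea, known as a lipid droplet protein of brown fat, had 7.46, 8.91 and 7.61 in spinal and 11.36, 11.02 and 11.29 in facial arrays (difference -3.23, SE 0.42, adjusted p = 0.00146).

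In these genes no spinal array came within the range of the facial ones. Cracdl differed by -3.54 (SE 0.37, adjusted p = 0.000251), Shisa9, an auxiliary subunit of AMPA receptors, by -2.80 (adjusted p = 0.00279) and Trim66 by -2.35 (adjusted p = 0.00331), all from spinal means near background. Rimklb, an enzyme that makes N-acetylaspartylglutamate, was 5.01-fold lower in spinal (9.79 ± 0.24 against 12.12 ± 0.38, SD, adjusted p = 0.000496), although its other probe sets differed by -0.23, -0.35 and -1.24. Qpct, glutaminyl-peptide cyclotransferase, differed by -2.22 (adjusted p = 0.015, lost at 0.0765 in a fit of all 12 motor neuron arrays). Among genes higher in spinal, the retinaldehyde dehydrogenase relative Aldh1a7 had 12.88, 10.97 and 12.32 in spinal and 9.28, 7.11 and 7.72 in facial arrays (difference 4.02, SE 0.56, adjusted p = 0.00192).

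Genes of motor neuron metabolism, axon and stress gave small differences. None of 44 respiratory chain and none of 16 glycolysis genes passed, where 7.3% of all genes did. The median difference was -0.02 for the respiratory chain and 0.13 for glycolysis, and at a common median 1 respiratory chain gene was lower (median -0.23). Of 29 neurofilament and axonal transport genes 4 were higher and none lower (13.8% higher, against 4.09% of all genes). These were among the brightest genes on the array and depended on scaling: Nefh, the heavy neurofilament, was 1.42-fold higher in spinal (17.26 ± 0.10 against 16.76 ± 0.12, SD, adjusted p = 0.00505), Tubb3, a neuronal tubulin, 1.52-fold (16.62 ± 0.03 against 16.01 ± 0.26, adjusted p = 0.0116) and Dync1h1, the dynein heavy chain, 1.6-fold (16.17 ± 0.18 against 15.50 ± 0.10, adjusted p = 0.00497). At a common median none of the list passed (adjusted p = 0.213, 0.108 and 0.0621 for these 3).

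Of 26 ALS-linked genes 8 were higher and 1, Epha4, lower (30.8% and 3.85%, against 4.09% and 3.22% of all genes), with 3, 4 and 5 higher without spinal replicate 1, 2 and 3, and 2 lower without facial replicate 1. Pfn1, the actin monomer binder profilin, was 2.92-fold higher in spinal, at 12.83, 13.08 and 12.98 against 11.38, 11.12 and 11.75 in facial arrays (difference 1.54, SE 0.21, adjusted p = 0.00166). Ang, the ribonuclease angiogenin, was 5.68-fold higher, at 12.29, 11.70 and 11.47 in spinal and 8.51, 10.61 and 8.82 in facial arrays (difference 2.51, SE 0.46, adjusted p = 0.00858). Both are also made outside neurons. Cytosolic ribosomal protein genes leaned the other way, with 2 of 25 differences above 0, where 49.4% of all genes were above 0. The list median was -0.27 where that of all tested genes is 0. The 2 called (8% lower, against 3.22% of all genes) were Rps14 (-0.43, adjusted p = 0.0315) and Rpl38 (-0.33, adjusted p = 0.0192). Both were lost without spinal replicate 1 or 2, while 5 were lower without facial replicate 3 and 1 without facial replicate 1 or 2. At a common median 5 were lower and the list median was -0.47.

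Genes induced by axon injury did not move together: 4 of 20 were higher and 2 lower (20% and 10%, against 4.09% and 3.22% of all genes), with a list median of 0.01. Atf3, the transcription factor that marks injured motor neurons, had 11.20, 12.36 and 11.07 in spinal and 9.75, 8.07 and 10.19 in facial arrays (4.62-fold, difference 2.21, SE 0.50, adjusted p = 0.0218). Sprr1a, which is switched on in regrowing axons, had 12.20, 11.50 and 9.06 in spinal and 7.83, 8.11 and 8.53 in facial arrays (difference 2.76, adjusted p = 0.025). Its facial arrays were near background and it was tested because of its spinal arrays, so the 20% includes a member favoured by the filter. Of the other 19 tested members, 5 passed. Without spinal replicate 1 or 2 no gene of the list was called. For Atf3 and Sprr1a every spinal array was above every facial one, and both calls were lost without spinal replicate 1 (adjusted p = 0.0556 and 0.129) or 2 (0.0956 and 0.105). The Atf3 call was also lost in a fit of all 12 motor neuron arrays (adjusted p = 0.18), and the Sprr1a call without facial replicate 1 (0.0617).

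Among chaperones, 3 of 29 were higher and 2 lower (10.3% and 6.9%, against 4.09% and 3.22% of all genes), and at a common median 1 was higher and the list median was -0.07 in place of 0.11. There was 1 higher without spinal replicate 2 or 3, and none lower without facial replicate 3 and 1 lower without facial replicate 1 or any spinal replicate. Hspd1, the mitochondrial chaperonin, was 1.95-fold higher in spinal (16.61 ± 0.06 against 15.64 ± 0.30, SD, adjusted p = 0.00166) and Hspb6, a small heat shock protein, 2.59-fold lower (11.93 ± 0.62 against 13.30 ± 0.31, adjusted p = 0.0148, lost at 0.0539 without facial replicate 3). Mt2, a metallothionein, was 2.41-fold higher in spinal, at 15.81, 15.87 and 15.84 against 14.95, 14.68 and 14.08 in facial arrays (adjusted p = 0.00192). All 6 cholesterol synthesis genes called among 19 tested were higher (31.6%, against 4.09% of all genes), with a list median of 0.42, but 2 were called at a common median (median 0.30), 1 without spinal replicate 1, 2 without spinal replicate 3, and 3 without spinal replicate 2 or facial replicate 3. Hmgcs1, the enzyme ahead of the statin target, was 1.34-fold higher (adjusted p = 0.00738, 0.455 at a common median). The neuropeptide precursor Vgf was 2.49-fold higher, at 14.53, 15.09 and 14.49 in spinal and 13.62, 13.12 and 13.42 in facial arrays (adjusted p = 0.00226).

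After the Hox genes, the list with the largest share of tested members past the threshold was that of microglia, the immune cells of the nervous tissue. Of 24 microglia markers on the array 16 were tested, 15 had a difference above 0 where 49.4% of all genes did, 13 (81.2%) passed as higher where 4.09% of all genes did, and the list median was 1.79 against 0. Of the 16, 4 (Aif1, Cx3cr1, Fcer1g and Mpeg1) had facial means near background and passed the filter through their spinal arrays, so these shares include members that had to differ. Of the other 12, 10 passed. Csf1r, the receptor for the growth factor that keeps microglia alive, had 14.49, 14.59 and 14.18 in spinal and 12.93, 12.33 and 12.59 in facial arrays (3.49-fold, difference 1.80, SE 0.19, adjusted p = 0.000251). The lysosomal gene Laptm5, active in immune cells, had 13.08, 13.12 and 12.59 in spinal and 10.38, 10.69 and 10.86 in facial arrays (4.89-fold, difference 2.29, SE 0.23, adjusted p = 0.000185). C1qb, a chain of complement C1q, had 12.69, 12.24 and 12.87 in spinal and 10.33, 10.53 and 10.50 in facial arrays (4.43-fold, difference 2.15, SE 0.23, adjusted p = 0.000251).

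In each of these 3 genes the sites stood apart on every array. Mpeg1, a pore-forming protein of macrophages, differed by 3.52 (SE 0.48, adjusted p = 0.00166), from 12.44, 11.77 and 11.23 in spinal and 7.13, 9.02 and 8.74 in facial arrays. Ctss, a cathepsin, was 3.14-fold higher, Ly86 3.42-fold, and the adaptor Tyrobp 3.94-fold (adjusted p = 0.00166, 0.00632 and 0.00884). The Fc receptor chain Fcer1g differed by 2.10, Aif1, the protein known as Iba1, by 2.03, Cd68 by 1.53 and Ptprc, the leukocyte antigen CD45, by 1.56 (adjusted p = 0.00773, 0.0262, 0.0243 and 0.0366), all lost without spinal replicate 1 (adjusted p = 0.0531, 0.141, 0.132 and 0.161), and the last 3 also without spinal replicate 3 (0.0958, 0.0653 and 0.0624). C1qa (1.43, adjusted p = 0.015) and C1qc (1.69, adjusted p = 0.0124) passed too, but were lost without spinal replicate 1 (adjusted p = 0.0849 and 0.0683), C1qa also without replicate 3 (0.0544), and in a fit of all 12 motor neuron arrays (0.466 and 0.211). In that fit Ly86, Cd68 and Ptprc lost the call as well (adjusted p = 0.0907, 0.148 and 0.161).

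The 3 markers tested but not called were Cx3cr1 (1.94, adjusted p = 0.199), Olfml3 (1.3, adjusted p = 0.0775) and Tmem119 (-0.43, adjusted p = 0.648). P2ry12, with Tmem119 one of the markers of resting microglia, was near background at 8.11 in spinal and 8.43 in facial arrays, and Itgam and Trem2 were near background at both sites. The summed intensity of the 24 markers, in units of 1000 as for every summed signal below, was 89.6 to 125 on spinal and 29.5 to 33.1 on facial arrays, and 159 to 187 in mutant cord tissue. Without each mutant array in turn, between 7 and 14 markers were called, the fewest without spinal replicate 1. From these levels, more cells of a type and more RNA per cell cannot be told apart, and the part of microglial RNA in the other differences was not tested.

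Of 12 tested genes of microglial activation 5 were higher and none lower, where 4.09% of all genes were higher. Of the 12, 5 (Axl, Ccl3, Cd52, Lgals3 and Lpl) had facial means near background and were tested because of their spinal arrays, and of the other 7 only Ctsd passed. The count was 8 and 9 without facial replicate 2 and 3, and 3 without spinal replicate 3. Cd52 had 11.66, 11.51 and 12.36 in spinal and 8.74, 7.80 and 9.70 in facial arrays (difference 3.10, SE 0.43, adjusted p = 0.00187). Lpl, a lipase of lipid-laden phagocytes, had 11.96, 11.28 and 11.11 in spinal and 7.35, 8.09 and 9.32 in facial arrays (difference 3.19, adjusted p = 0.00239). Lgals3, a galectin of phagocytes, differed by 3.29 (adjusted p = 0.00331). Of 19 genes of interferon response and antigen presentation 3 were higher (15.8%, against 4.09% of all genes), with 1 called without spinal replicate 1 and 5 without facial replicate 3, among them the class I heavy chain H2-K1 (2.81-fold, 12.92, 12.79 and 12.99 in spinal against 11.35, 11.33 and 11.55 in facial, adjusted p = 0.00101) and its partner B2m (2-fold, adjusted p = 0.014, lost at 0.0531 without spinal replicate 1). Ctsd, a lysosomal protease listed with the activation genes and made by neurons as well, was 1.78-fold higher (15.64 ± 0.12 against 14.81 ± 0.08, SD, adjusted p = 0.00166).

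Markers of other cell types were less uniform. Among 22 astrocyte markers 3 were higher (13.6%, against 4.09% of all genes), and Gfap, the astrocyte filament, had the smallest p. It had 13.84, 14.34 and 13.65 in spinal and 10.54, 10.21 and 9.49 in facial arrays (14.6-fold, difference 3.87, SE 0.28, adjusted p = 1.22e-05). Of the other markers 2 passed, one being the water channel Aqp4 (2.01-fold, adjusted p = 0.0212, lost without any one of 5 arrays), and the list median was 0.11. Without facial replicate 3 or any one spinal replicate, 1 astrocyte marker was called. The summed astrocyte signal was 498 to 530 on spinal and 445 to 480 on facial arrays. Of 19 oligodendrocyte genes none was higher and 1 lower (5.26% lower, against 3.22% of all genes). That was 0 lower without any one array other than facial replicate 2, when 1 was higher too. No precursor gene of 12 passed, where 7.3% of all genes did. In lists this short neither count stands apart from the shares of all genes.

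Of 8 tested genes of connective tissue and vessel walls 1 was higher, 3 were lower and 4 did not pass (12.5% and 37.5%, against 4.09% and 3.22% of all genes). Dcn, the proteoglycan decorin, had 12.59, 9.92 and 12.24 in spinal and 13.42, 14.80 and 14.87 in facial arrays (6.89-fold lower in spinal, difference -2.79, SE 0.57, adjusted p = 0.014). Vtn differed by -2.18 (adjusted p = 0.00438, 0.245 in a fit of all 12 motor neuron arrays) and Col4a1 by -0.97 (adjusted p = 0.0162, lost without any one of 3 arrays). A second, dimmer Col4a1 probe set went the other way, by 0.36, with means of 8.95 in spinal and 8.59 in facial arrays. Igfbp2 was 2.71-fold higher in spinal (adjusted p = 0.0274, lost without any one of 4 arrays). The summed signal of this list was 67.3 to 86.5 on spinal and 91.4 to 137 on facial arrays.

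Genes of interneurons were uneven among the spinal arrays. Of 8 tested 3 were higher, Calb2 among them, and 1 lower (37.5% and 12.5%, against 4.09% and 3.22% of all genes), with a median of 2.06, and the summed signal was 73.6 to 173 on spinal and 15.2 to 21.2 on facial arrays. Without spinal replicate 3 the number higher was 6, and it was 1 without spinal replicate 1 or 2 or facial replicate 3. Slc6a5, the glycine transporter of inhibitory interneurons, read 13.49, 14.52 and 9.86 in spinal and 10, 8.66 and 7.95 in facial arrays, so that spinal replicate 3 fell below facial replicate 1 (difference 3.75, SE 0.90, adjusted p = 0.0274, lost without any one of 4 arrays). Slc32a1, the vesicular transporter of GABA and glycine, read 13.71, 14.80 and 10.06 in spinal and 10.84, 9.99 and 12 in facial arrays, and Gad1 10.61, 12.71 and 7.63 in spinal and 7.07, 9.07 and 8.19 in facial arrays, neither past the threshold (adjusted p = 0.224 and 0.2). Pvalb, a calcium buffer of fast interneurons, read 14.25, 15.26 and 12.16 in spinal and 12.06, 12.26 and 10.22 in facial arrays (difference 2.38, adjusted p = 0.0473, lost without any one of 4 arrays). In all 4 genes spinal replicate 3 was the lowest of the spinal arrays. Their part in other differences was not tested. Calb2, also on this list, read 15.86, 15.88 and 15.93 in spinal arrays, and which cells gave its signal was not tested.

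**Figure D3:**
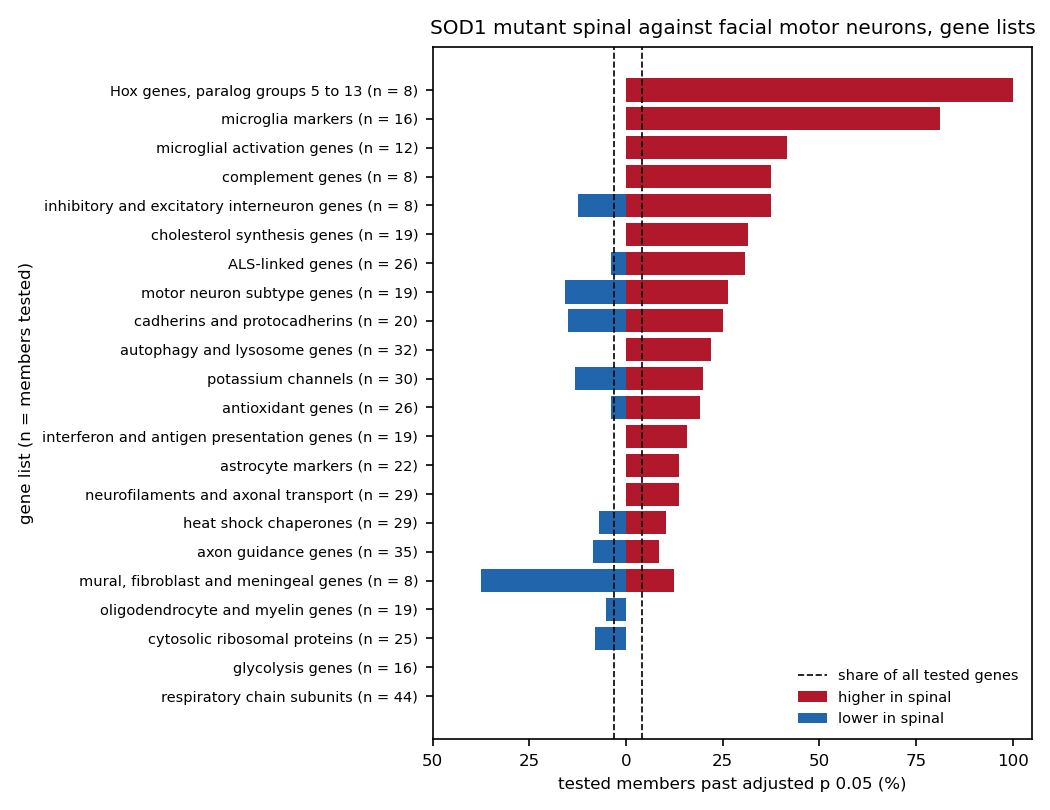
Share of the tested members of 22 gene lists past an adjusted p of 0.05, higher in spinal in red to the right and lower in spinal in blue to the left, in percent, with the number tested in brackets. Dashed lines are the shares of all tested genes, 4.09% higher and 3.22% lower. Hox genes of groups 5 to 13 (8 of 8, selected by the brightness filter) and microglia markers (13 of 16, of which 4 tested ones were near background in facial arrays) reach furthest to the right.

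The wildtype arrays share no sample with the mutant ones, and genes called in the mutant mostly had the same sign in wildtype. In wildtype 432 of 10916 genes (3.96%) passed, 2.13% higher and 1.82% lower in spinal. That count was less steady than the mutant one: it was 685 and 74 without wildtype spinal replicate 2 and 3, and 216, 112 and 66 without wildtype facial replicate 1, 2 and 3. The actin 3' to 5' ratio did not overlap between the wildtype sites, at 56.9, 40.9 and 41.5 in spinal and 74.4, 68.8 and 59.7 in facial arrays, and with that ratio as a covariate 4 genes were called in wildtype. Of 10534 genes tested in both genotypes, 118 were higher in spinal in both, which is 27.7% of the mutant and 51.8% of the wildtype calls of that direction. The number lower in both was 81 (23.2% of the mutant and 41.8% of the wildtype calls), and no gene was called in opposite directions. Of the 426 genes called higher in the mutant, 92.5% had a wildtype difference above 0, where 51.3% of all genes did. Of the 349 called lower, 94.3% had one below 0.

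Among genes bright at both sites, the site difference of Isl1 was -1.97 in both genotypes and that of Meis2 -1.49 in mutant and -1.55 in wildtype. For Mnx1 (6.75 in mutant and 7.08 in wildtype), Hoxc8 (6.01 and 6.05) and Shox2 (-7.84 and -6.97) one site was near background in both genotypes, so the sizes of these differences are set by the background and cannot be compared. Each of these wildtype differences passed. Gfap also passed in wildtype (3.91, adjusted p = 0.0126), where its facial arrays were near background, with 11.14, 10.81 and 11.35 in wildtype spinal and 7.26, 8.33 and 5.96 in wildtype facial arrays. Calb2 differed by 6.27 in the mutant and 4.25 in wildtype, and Hoxa9 by 8.87 and 5.77, without a difference between genotypes past the threshold (interaction adjusted p = 0.287 and 0.507).

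The test of the difference between genotypes called no gene. Over 12 arrays, none of 10916 genes had an interaction past the threshold (limma, smallest adjusted p = 0.219), and 987 (9.04%) had an unadjusted p under 0.05. Of 786 mutant site calls with this test, 140 were among those 987. The 786 were selected on the same mutant arrays that enter the interaction, so that count is no evidence of a difference between genotypes. No site difference is therefore shown to belong to the mutant alone. The genes nearest to it on the mutant side were Laptm5, Col24a1, H2-K1, Cog1 and Amy1, and on the wildtype side Nudt12, Coa8, Ighm, Ncoa2 and Mycbp, all at 0.219. Ighm and Ncoa2 were lower in mutant spinal arrays (-0.98 and -0.88, adjusted p = 0.00998 and 0.014), with wildtype differences of 0.19 and 0.48 that did not pass. The Ncoa2 call was lost without mutant spinal replicate 1 (adjusted p = 0.0627) or 3 (0.0513), and a dimmer Ncoa2 probe set differed by 0.02 in the mutant. The probe sets of Ighm disagree, since a dimmer one differed by -1.49 and another by 0.96.

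Microglia markers are one place where the genotypes gave unlike values, although the test of that difference called none of them. In wildtype 13 were tested, none passed, 6 had a difference above 0 and the median was -0.19. Markers that the filter left out in wildtype, Mpeg1 among them, are not in these counts. Laptm5 had 10.23, 10.39 and 10.29 in wildtype spinal and 9.60, 11.11 and 10.79 in wildtype facial arrays, where the mutant spinal arrays lay at 12.59 or above. C1qb had 11.17, 7.91 and 9.85 in wildtype spinal and 10.45, 11.64 and 11.65 in wildtype facial arrays. Csf1r had 13.14, 11.66 and 12.55 in wildtype spinal and 12.13, 13.53 and 13.16 in wildtype facial arrays. The wildtype spinal arrays varied more for these genes, with replicate 2 the lowest for C1qb, Csf1r, Tyrobp and Cd68.

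Of 14 markers in the interaction test, 12 had a larger site difference in the mutant, with a median of 1.96 and adjusted p of 0.219 or more. Of all genes tested in the mutant, 5167 of 10736 had an interaction above 0, with a median of -0.02. The interaction was 2.48 for Laptm5, 2.29 for Csf1r and 3.75 for C1qb, each at adjusted p = 0.219. With 1 array left out, 8 single genes passed the interaction: Pde2a without mutant facial replicate 1 (2.09, adjusted p = 0.0279), Ints2, Kalrn and Stk38 without wildtype spinal replicate 2 (1.92, 2.07 and 2.03, each at adjusted p = 0.0366), Laptm5 without wildtype facial replicate 1 (2.93, adjusted p = 0.00698), Lpl without wildtype facial replicate 2 (8.22, adjusted p = 0.0066), and C1qb (4.51, adjusted p = 0.0347) and Socs3 (4.15, adjusted p = 0.0192) without wildtype spinal replicate 1. For Laptm5 the array left out was the lowest wildtype facial one, and for C1qb the highest wildtype spinal one. Each gene passed in a single such fit and not with every array kept, so these passes do not show a difference between genotypes. The summed microglia signal was 14.7 to 44.8 on wildtype spinal and 20.1 to 44.8 on wildtype facial arrays, so mutant spinal arrays lay above all other motor neuron arrays.

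**Figure D4:**
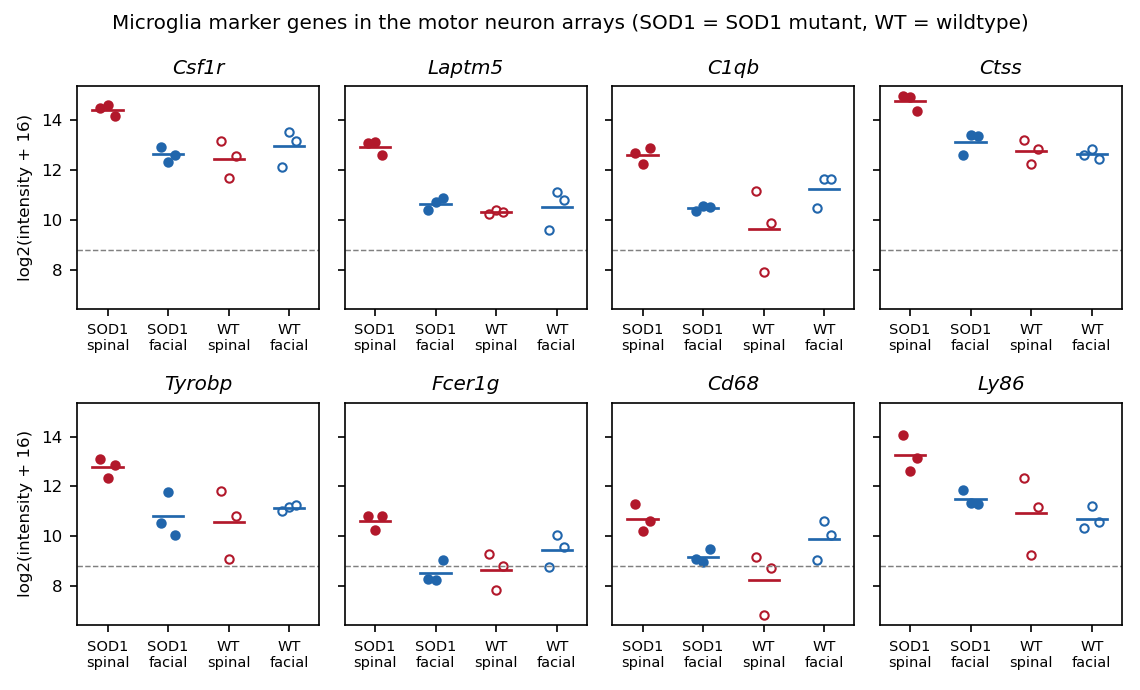
Levels of 8 microglia marker genes on the 12 motor neuron arrays, as log2(intensity + 16). Red points are spinal and blue points facial arrays, filled for SOD1 mutant and open for wildtype, with bars at the means of 3 and the background level of 8.79 dashed. The 3 mutant spinal arrays lie above the mutant facial arrays in every panel, while the wildtype sites overlap in every panel.

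**Figure D5:**
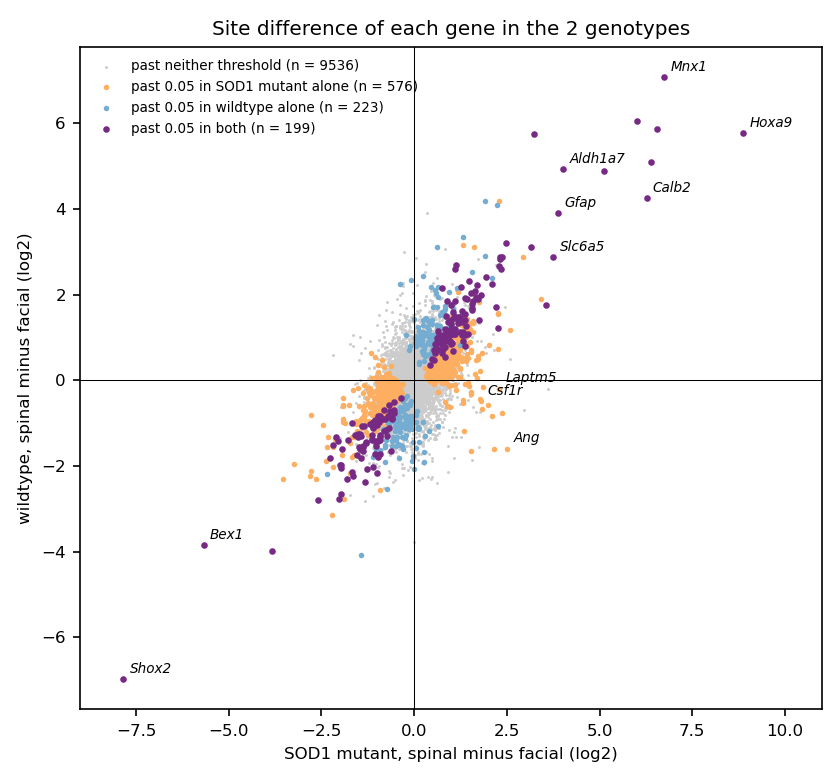
Site difference, spinal minus facial on the log2 scale, in SOD1 mutant (horizontal) and wildtype (vertical) motor neurons for 10534 genes tested in both. Colours give the genes past an adjusted p of 0.05 in both genotypes (199), in the mutant alone (576), in wildtype alone (223) or in neither (9536). Mnx1, Hoxa9, Calb2 and Gfap lie far to the upper right and Shox2 and Bex1 to the lower left, and Laptm5, Csf1r and Ang lie to the right near or below a wildtype difference of 0.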

How the data were processed

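Total RNA of 18 mouse samples in 6 groups of 3 was amplified with T7 and hybridised to Affymetrix mouse arrays of 45101 probe sets. The authors deposited linear intensities, which the values show to be scaled to a common 2% trimmed mean of 2500; how images became intensities is not given in the sources used here. The intensities were taken as log2(value + 16) and quantile normalized over 18 arrays. The brightest probe set with a single gene symbol stood for each of 18193 genes, and the genes above the 40th percentile of mean level in each fit (10916) were tested with limma 3.58.1 in R 4.3.3, with a mean-variance trend and Benjamini-Hochberg adjustment at 0.05. The interaction used all 12 motor neuron arrays. The precision is limited by 3 arrays a group. Same-numbered mutant arrays did not deviate together (r = -0.03 to 0.03), so the numbers were not used as a pairing. Members and gene lists were chosen with earlier results of these data known. Named genes are up to 15 a direction with the largest difference among called genes whose sites do not overlap, up to 4 of smallest p in each list, all tested Hox, motor neuron factor and cholinergic genes, and the 5 smallest interaction p values a direction; genes named with values outside this rule were chosen after their values were seen. Alternatives covered scaling, pseudocount, filter, probe sets, trend, weights, a replicate block, an actin ratio covariate, a 12-array fit and leaving out each array. The fit was tested on simulated data. Promoters came from RefSeq.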

Additional observations from a re-analysis of the deposited data

How the results depend on the processing

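The mutant count of 797 genes was 147 without the mean-variance trend, 586 with a replicate block, 576 with the actin ratio as covariate, 553 in a fit of all 12 motor neuron arrays, and 308 to 683 when 1 array was left out; the other settings gave 669 to 997. The wildtype count of 432 was 196 without the trend, 3222 with array weights, 233 with a replicate block, 4 with the actin ratio as covariate, and 66 to 685 when 1 array was left out. The genotype difference, with 0 genes called, had 1 without the trend and 0 to 3 when 1 array was left out. Of 119 named genes 109 were called, of which 48 stayed called in every setting in which they were tested, 20 lost the call in the fit without a trend alone and 33 without at least 1 array. The signs that turned belong to genes that were not called: Sod1 (-0.13 at a common median), Slc18a3 (-0.05 with array weights and -0.14 with the actin covariate, -0.21 to 0.31 when 1 array was left out), Hoxb2 (-0.13 to 0.34), Hoxb3 (-0.20 to 0.61) and Chat (-0.68 to 0.03). The cause of these shifts was not tested.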

Other observations

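Some genes with site differences past the threshold in the mutant fell in none of the lists and were chosen after their values were seen. Lypd6b, a relative of proteins that modulate nicotinic receptors, had 14.40, 14.06 and 14.24 in spinal and 11.97, 11.69 and 12.12 in facial arrays (4.94-fold, difference 2.30, limma adjusted p = 1.92e-05), with a wildtype difference of 2.67 (adjusted p = 0.0011). The imprinted gene Mest had 13.59, 13.66 and 14.02 in spinal and 11.22, 11.53 and 11.60 in facial arrays (4.94-fold, difference 2.31, adjusted p = 4.45e-05), with a wildtype difference of 2.87 (adjusted p = 0.00384). The sites did not overlap for either gene. Uts2, the vasoactive peptide urotensin 2, had 13.71, 15.60 and 14.95 in spinal and 11.87, 11.57 and 10.52 in facial arrays (10.8-fold, difference 3.43, adjusted p = 0.000912), and its wildtype difference of 1.90 did not pass (adjusted p = 0.13). Enpep, an aminopeptidase that cleaves angiotensin, had 12.48, 12.32 and 12.83 in spinal and 10.19, 9.99 and 10.57 in facial arrays (4.89-fold, difference 2.29, adjusted p = 0.000251), with a wildtype difference of 4.18 that did not pass (adjusted p = 0.119) and rests on wildtype facial replicate 1, at 4.73 where the other 2 were at 11.06 and 10.56. The mutant Enpep call was lost in a fit of all 12 motor neuron arrays (adjusted p = 0.257). Uts2 and Enpep were called in the mutant and not in wildtype, but neither is shown to differ between genotypes.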
